A study of Mus musculus with 7 samples.

Results

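Interferon-stimulated genes are the genes that cells switch on when interferon binds its receptor, and 31 of them were followed here as a fixed list in RNA sequencing of the mouse abdominal aorta. Of the 31 genes, 29 had a row in a count table of 21878 genes, and all 29 passed the filter on low counts, with 75 to 2154 reads per gene and library. The list was set by gene name, with earlier results of these data known. The remaining members, Mx1 (chromosome 16, 97447035 to 97462906, GRCm38.p6) and Mx2 (chromosome 16, 97536081 to 97560901), have no values here. RefSeq annotates both as transcribed pseudogenes in the reference strain C57BL/6J.

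The libraries came from male C57BL/6 mice labelled as aged 8 weeks and treated for up to 28 days with Ang II (angiotensin II), a hormone that raises blood pressure and is used to induce aneurysm of this vessel in mice with high plasma lipids. In 3 libraries (ApoE 1 to ApoE 3) the genotype was labelled ApoE-/-, the loss of the apolipoprotein that clears plasma cholesterol remnants. In 4 libraries (DKO 1 to DKO 4) it was labelled ApoE-/-Nur77-/-, which adds loss of the nuclear receptor Nur77, encoded by Nr4a1. Every group therefore carried the ApoE-/- label and had Ang II. No library without Ang II and none labelled with both genes intact was part of the comparison. The values therefore compare the genotypes as labelled and do not show a response to Ang II. Whether each library stands for its own mouse is not stated in the labels. The p-values therefore set the difference between labels against the spread between these libraries, which may not be a spread between mice. The comparison asks whether the interferon-stimulated genes differ between libraries with and without the added Nur77-/- label.

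Type I interferons bind a receptor made of IFNAR1 and IFNAR2, whose kinases JAK1 and TYK2 phosphorylate STAT2. With IRF9 it is part of ISGF3, which binds the interferon-stimulated response element in promoters, while interferon gamma acts mainly through the gamma-activated site. The products of the induced genes sense viral RNA, degrade it, block its translation or tag proteins with ISG15, and in the vessel wall macrophages, endothelial cells and smooth muscle cells can all express them.

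Libraries held 19295287 to 21727192 gene counts, and values are given as CPM, counts relative to the library total after TMM scaling. The genotype labels were only partly met by the RNA. Nr4a1 was at 56.4 to 193 CPM in the ApoE libraries and at 46.2 to 92.7 CPM in the DKO libraries (log2 fold change -0.75, SE 0.42, edgeR adjusted p = 0.360). Apoe, labelled as lost in both groups, had a mean of 222 ± 34.4 CPM over ApoE 1 to ApoE 3 (SD, n = 3) and of 28.7 ± 7.52 CPM over DKO 1 to DKO 4 (SD, n = 4), a log2 fold change of -2.95 (SE 0.23, edgeR adjusted p = 0.0227). No source used here gives the deleted part of either gene, and directions are those of the libraries as labelled. Smooth muscle markers, summed over 9 genes, were present in every library at 8555 to 30554 CPM, and 9 endothelial markers at 1544 to 2054 CPM. Atrial cardiomyocyte genes (7 genes, of which Myh6, Myl7, Nppa and Sln were at 0 in at least 1 library), which do not belong to the abdominal aorta, summed to 359 CPM in ApoE 2 and 1291 CPM in ApoE 3, against 18.96 to 44.8 CPM in the other libraries.

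Promoter sequences show a feature shared by most of the genes for which a promoter was found. Its letters were not used to set the list. The genes were listed as interferon-stimulated, however, and ISGF3 acts through the response element, so this share is not an independent result. A promoter was found for 23 of the 29 genes in the RefSeq table on GRCm38.p6, which gives 250 bases before to 50 bases after each annotated start. The core of the interferon-stimulated response element, searched as GAAANNGAA on both strands, occurred for 15 of the 23 genes (65.2%), against 9.76% of the 27025 genes in the table. The gamma-activated site, searched as TTCNNNGAA, which reads the same on both strands, occurred for 7 of the 23 (30.4%), against 9.55% of all genes. Matches were allowed to overlap each other and those of the other motif. A match is a description of letters, and a promoter without one, such as that of Irf7, says only that these letters are not in that window.

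The stretches printed here are examples with repeated or overlapping copies of the response element core, with the gamma-activated site of Irf1 for contrast. Each is read 5′ to 3′ on the strand of its gene, and capitals mark the matched motif on either strand (adjoining copies share bases).
Isg15, chr4:156200859-156200918, minus strand, bases 100 to 41 before the start: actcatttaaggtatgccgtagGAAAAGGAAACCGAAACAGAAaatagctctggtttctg
Ifit1, chr19:34640764-34640823, plus strand, bases 125 to 66 before the start: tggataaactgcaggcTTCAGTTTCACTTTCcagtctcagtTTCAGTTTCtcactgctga
Ifit3, chr19:34583406-34583435, plus strand, bases 123 to 94 before the start: gtTTCAGTTTCtactttcctcTTCCCTTTC
Oas3, chr5:120777700-120777759, minus strand, bases 100 to 41 before the start: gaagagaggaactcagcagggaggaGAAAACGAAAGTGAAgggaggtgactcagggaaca
Gbp3, chr3:142559955-142560014, plus strand, bases 89 to 30 before the start: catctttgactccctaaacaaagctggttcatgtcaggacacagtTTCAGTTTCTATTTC
Irf1, chr11:53769894-53769953, plus strand, bases 120 to 61 before the start: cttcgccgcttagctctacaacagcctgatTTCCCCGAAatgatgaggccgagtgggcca

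Isg15 held 3 overlapping copies, from 78 bases before its start, and Oas3 held 2 copies that overlap in the same way. Ifit1 held 3 copies and Ifit3 held 3, of which the pair nearest the start is shown. The Ifit3 start used by the promoter table is a later one than the first base of the RefSeq gene (34583119), so the Ifit3 stretch lies inside the gene model. The Irf1 stretch held the gamma-activated site and no copy of the response element core.

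The interferon genes themselves were almost unread. Of 19 interferon ligand genes, 16 had no count in any library, and no gene had more than 3 reads in any library. Ifng, the interferon of T and NK cells, had 3, 3 and 0 reads in the ApoE libraries and 3, 0, 2 and 1 in the DKO libraries, and Ifnb1 had 1 read in ApoE 1 and 1 in DKO 3. A count of 0 allows a level of up to 0.133 to 0.164 CPM, depending on the library, a limit that covers counting error only. At this depth no comparison of the ligands between groups was possible.

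The stimulated genes were read in every library, at levels that spanned nearly 2 orders of magnitude per length. By deposited FPKM, which scales for gene length and depth, Bst2 was the highest of the 29 at 73.0 to 110.1 FPKM over the 7 libraries. BST2, or tetherin, holds budding virus at the cell surface and is also found on cells at rest. Ifi35 (17.9 to 23.4 FPKM), Gbp2 (18.3 to 24.1 FPKM) and Isg15 (11.3 to 23.3 FPKM) followed, and their ranges overlapped. Oas3 had the lowest mean, at 0.598 to 1.69 FPKM, below Oasl1 (1.71 to 3.35 FPKM) without overlap. Its range did overlap those of Ifi44 (1.60 to 3.33 FPKM) and Dtx3l (1.28 to 5.85 FPKM).

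**Figure D1:**
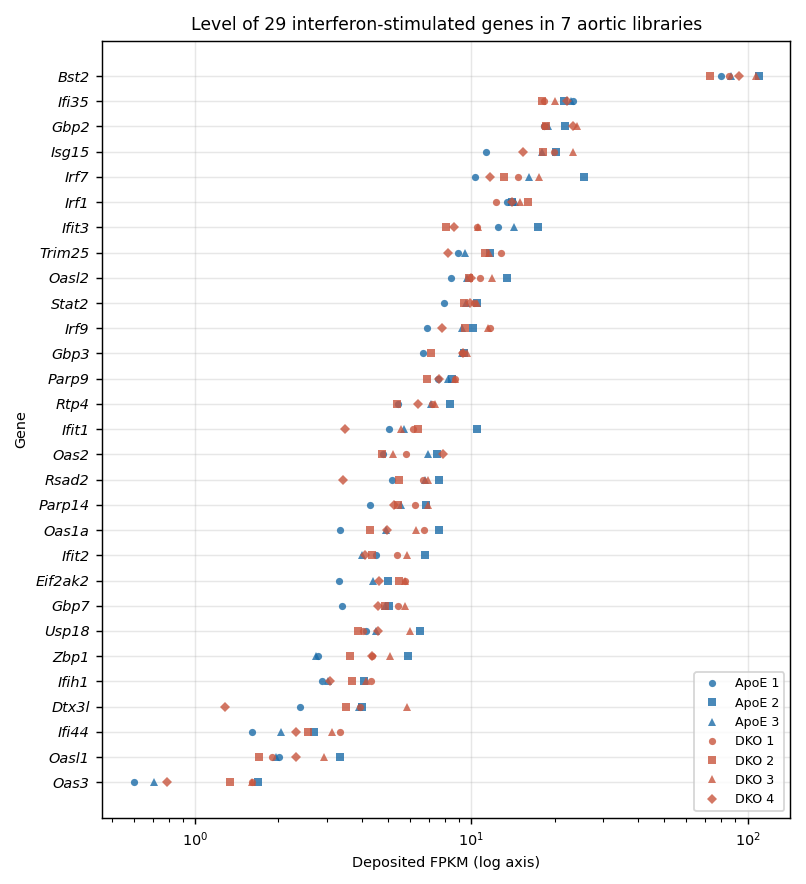
Deposited FPKM on a log axis for the 29 measured interferon-stimulated genes, ordered by their mean, with 1 point per library (blue, ApoE; red, DKO; the shape gives the number). Bst2 stands highest at 73.0 to 110.1 FPKM and Oas3 lowest at 0.598 to 1.69 FPKM, and blue and red points are mixed within most genes.

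No member passed the test between the labelled genotypes. With edgeR's quasi-likelihood test over all 14609 genes (Benjamini-Hochberg adjusted p under 0.05), 0 of the 29 were called higher and 0 lower in DKO, against 0% of all tested genes called higher and 0.0274% called lower. At an unadjusted p under 0.05 there were 3 members, 1 higher and 2 lower, against 19.8% of all tested genes (8% higher and 11.8% lower). Of the 29, 13 had a positive log2 fold change and 16 a negative one, against 47.4% positive among all genes, and RLE scaling in place of TMM turned this to 16 positive. The median log2 fold change was -0.0064 for the members and -0.021 for all genes, and the median size without sign was 0.126 against 0.221. DESeq2's Wald test called 1 member lower, Ifit3, and 0 higher, against 4.95% of genes lower and 3.3% higher.

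The intervals say how large a difference could have gone unseen. For 26 of 29 members the 95% interval of the log2 fold change lay within -1 to 1, that is within a 2-fold difference in either direction, against 70.2% of all genes. The 3 others were Ifit1 (-1.02 to 0.23), Oas3 (-0.61 to 1.22) and Dtx3l (-0.997 to 1.04). No member had a fitted change of 2-fold or more, against 4.44% of all genes.

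**Figure D2:**
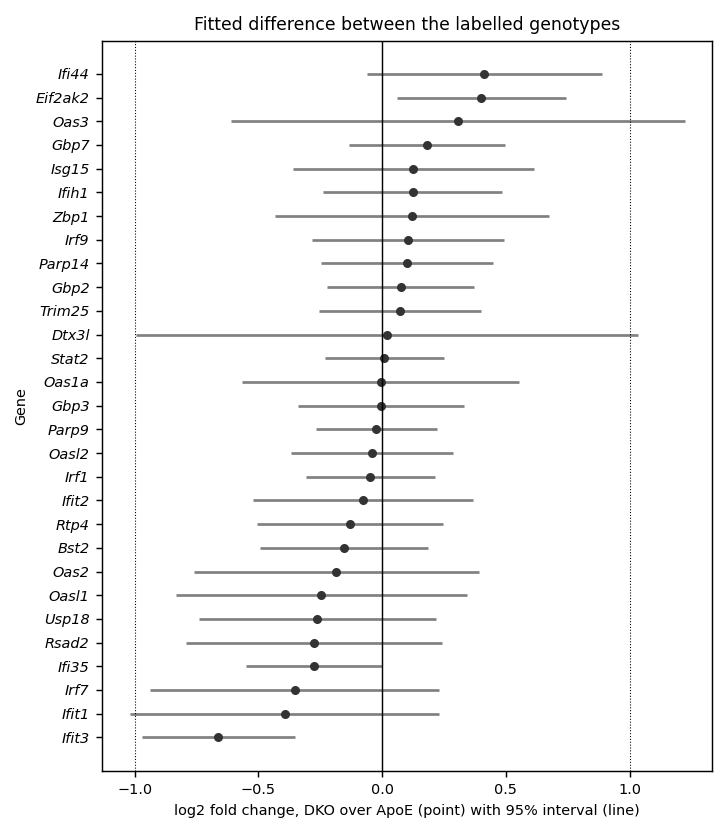
Fitted log2 fold change of each measured member, DKO over ApoE (point), with its 95% interval (line). Dotted lines mark a 2-fold difference in either direction. The interval of Ifit3 (-0.97 to -0.35) lies below 0 and that of Eif2ak2 (0.06 to 0.74) above it, and most others span 0.

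Among the 7 libraries, ApoE 2 stood high and ApoE 1 low for many members. ApoE 2 gave the highest CPM of the 7 libraries for 13 of the 29 members (44.8%), against 7.32% of all tested genes, and the lowest for 0. ApoE 1, of the same label, gave the lowest CPM for 12 members and the highest for 0, against 11.7% and 11.4% of all genes. The mean log2 CPM of the members was 4.60, 5.10 and 4.88 in ApoE 1 to ApoE 3 and 4.88, 4.71, 5.02 and 4.70 in DKO 1 to DKO 4. The ApoE libraries thus lay on both sides of all the DKO libraries, at 4.86 ± 0.25 (SD, n = 3) against 4.83 ± 0.15 (SD, n = 4). Among the DKO libraries, DKO 3 was the highest for 16 members, against 15.4% of all genes, and DKO 4 the lowest for 13, against 32.2%.

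Markers of immune cells followed this order in part. In a bulk sample, fewer cells of a type and less RNA per cell cannot be told apart. The summed level of 12 macrophage markers was 3656, 4108 and 2795 CPM in ApoE 1 to ApoE 3 and 5176, 3872, 6030 and 3112 CPM in DKO 1 to DKO 4, so that ApoE 2 was the highest of its label and DKO 3 the highest of all, while ApoE 1 was not the lowest. The 13 T and NK cell markers summed to 32.4, 41.0 and 18.2 CPM against 49.0, 33.4, 72.6 and 32.7 CPM, with DKO 3 again the highest. Siglech, a defining marker of plasmacytoid dendritic cells, the cell type that makes most type I interferon, was read at 1.04, 3.86 and 0.927 CPM against 3.11, 1.45, 5.15 and 1.02 CPM. ApoE 2 and DKO 3 were thus the highest of their label for it, from 17 to 116 reads per library. The 6 markers of that cell type summed to 10.3, 38.7 and 35.02 CPM against 11.3, 25.8, 24.0 and 5.83 CPM. In this sum DKO 2 and not DKO 3 was the highest of its label, with Pacsin1 alone at 20.5 CPM in DKO 2 and 5.02 CPM in DKO 3. Klk1 was at 0 in at least 1 library, and Cox6a2, also a heart muscle gene, was at 32.9 CPM in ApoE 3. Other lists had another order among the DKO libraries. The 5 monocyte markers summed to 191, 268 and 207 CPM against 319, 208, 238 and 175 CPM, and the 8 neutrophil markers (Ly6g and Ngp at 0 in at least 1 library) to 29.3, 65.3 and 23.1 CPM against 146, 60.7, 50.2 and 34.2 CPM, both highest in DKO 1. The 8 B and plasma cell markers summed to 24.3, 134 and 4.96 CPM against 92.4, 42.0, 177 and 144 CPM, highest in DKO 3. ApoE 2 was the highest ApoE library for every one of these lists. The part of these cells in the order of the libraries was not tested.

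**Figure D3:**
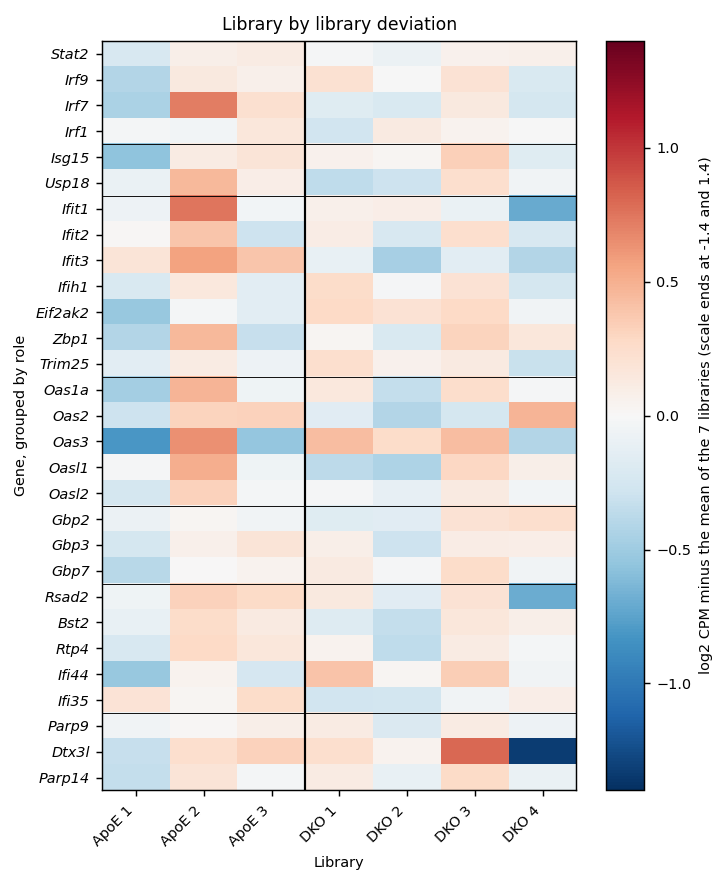
Colour gives the log2 CPM of each member in each library minus the mean of that gene over the 7 libraries (red above, blue below); rows are grouped by role and the vertical line separates the labels. The column of ApoE 2 is mostly red and that of ApoE 1 mostly blue, and Dtx3l in DKO 4 is the deepest blue.

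None of the 4 transcription factors passed the test, 2 being positive and 2 negative. Stat2 was at 59.0, 73.0 and 74.8 CPM in ApoE 1 to ApoE 3 and at 68.2, 64.9, 71.7 and 72.6 CPM in DKO 1 to DKO 4. ApoE 1 was the lowest library and the groups overlapped (log2 fold change 0.01, 95% interval -0.23 to 0.25). Irf9, the DNA-binding partner in ISGF3, was at 27.2, 39.7 and 38.0 against 41.9, 35.8, 41.5 and 31.1 CPM, again with ApoE 1 lowest (0.10, interval -0.28 to 0.49). Irf7, the factor that amplifies type I interferon production and is itself induced, was at 31.5, 70.2 and 49.8 against 38.0, 36.9, 47.2 and 36.0 CPM. The ApoE libraries alone held both its lowest and its highest value, and the fitted log2 fold change of -0.35 (SE 0.25, edgeR adjusted p = 0.456) was -0.04 without ApoE 2 and -0.60 without ApoE 1. Irf1, which answers mainly to interferon gamma, kept between 51.5 and 68.9 CPM in all 7 libraries (log2 fold change -0.05, interval -0.31 to 0.21).

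In the ISG15 system, Isg15, the ubiquitin-like protein joined to newly made proteins, was at 9.27, 14.8 and 15.5 CPM in the ApoE libraries and at 14.2, 14.0, 17.3 and 12.2 CPM in the DKO libraries. ApoE 1 was the lowest and DKO 3 the highest, and the groups overlapped (log2 fold change 0.13, SE 0.21, edgeR adjusted p = 0.778). Usp18, the protease that removes ISG15 and damps the receptor, was at 9.42, 13.8 and 10.7 against 7.90, 8.25, 11.9 and 9.77 CPM. Its order differed from that of Isg15, with ApoE 2 highest and DKO 1 lowest (log2 fold change -0.26, SE 0.20, edgeR adjusted p = 0.502).

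Ifit3 had the smallest p of the 29. The IFIT family includes proteins that bind viral RNA lacking host cap marks. Ifit3 was at 45.7, 59.4 and 52.6 CPM in ApoE 1 to ApoE 3 and at 37.3, 29.1, 36.3 and 30.2 CPM in DKO 1 to DKO 4. Every DKO library lay below every ApoE library, and Ifit3 was the 1 member of 29 whose groups did not overlap, against 16.3% of all genes tested (9.24% lower and 7.08% higher in DKO). The means were 52.6 ± 6.88 (SD, n = 3) and 33.2 ± 4.17 CPM (SD, n = 4), and the log2 fold change of -0.66 (SE 0.13, unadjusted p = 0.00133, adjusted p = 0.129) did not pass edgeR's test. It passed DESeq2's Wald test (adjusted p = 0.00593), the only call among 14 alternatives, whose adjusted p ran up to 0.429 and whose log2 fold change ran from -0.75 to -0.56.

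Of the neighbours of Ifit3 on chromosome 19, Ifit2 and Ifit1 overlapped between labels and Ifit3b did not. Ifit2, whose gene lies on one side in the same cluster (chromosome 19, 34550550 to 34576534), was at 26.9, 34.9 and 21.9 CPM against 28.7, 22.8, 31.4 and 22.8 CPM, with full overlap (log2 fold change -0.08, SE 0.19). Ifit1 (34640889 to 34650009) was at 17.4, 30.7 and 17.8 against 19.2, 19.4, 17.1 and 11.1 CPM, where ApoE 2 alone was high and DKO 4 alone was low (log2 fold change -0.39, SE 0.27, edgeR adjusted p = 0.439). Without ApoE 2 the log2 fold change of Ifit1 was -0.07. Between them lies Ifit3b, a close copy of Ifit3 that was not on the list, at 11.9, 15.7 and 14.1 against 11.1, 9.89, 9.68 and 8.79 CPM. Its groups did not overlap either (log2 fold change -0.49, SE 0.15, edgeR adjusted p = 0.163). No source used here says how reads shared by Ifit3 and Ifit3b were counted, so their values may not be independent.

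A ratio of neighbouring genes within a library does not depend on how that library was scaled. Ifit3 over Ifit2 was 1.70, 1.70 and 2.40 in the ApoE libraries and 1.30, 1.27, 1.15 and 1.33 in the DKO libraries. The groups did not overlap, and the exact permutation test over libraries (two-sided) gave p = 0.0571, its lower limit with 3 against 4 libraries. Ifit3 over Ifit1 overlapped, at 1.94 to 2.96 against 1.498 to 2.71 (exact two-sided permutation p = 0.457). The ratios were chosen after the values of these genes had been seen, and they show unequal levels of neighbouring genes and not which of them changed.

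Adipocyte genes also separated the labels, in the direction of Ifit3. The summed level of 7 adipocyte markers was 4512 to 6933 CPM in the ApoE libraries and 2183 to 3308 CPM in the DKO libraries, without overlap and with none of the 7 at 0. The atrial cardiomyocyte genes were highest in ApoE 2 and ApoE 3, while ApoE 1 (42.1 CPM) lay within the DKO range. Without ApoE 2 alone the log2 fold change of Ifit3 was -0.56, and without ApoE 3 alone it was -0.66. Each of these fits kept the other library that was high in atrial genes. The ApoE libraries kept were also all above the DKO libraries in the adipocyte sum, so neither fit is a test of these cells. The part of these cells in the level of Ifit3 was not tested.

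**Figure D4:**
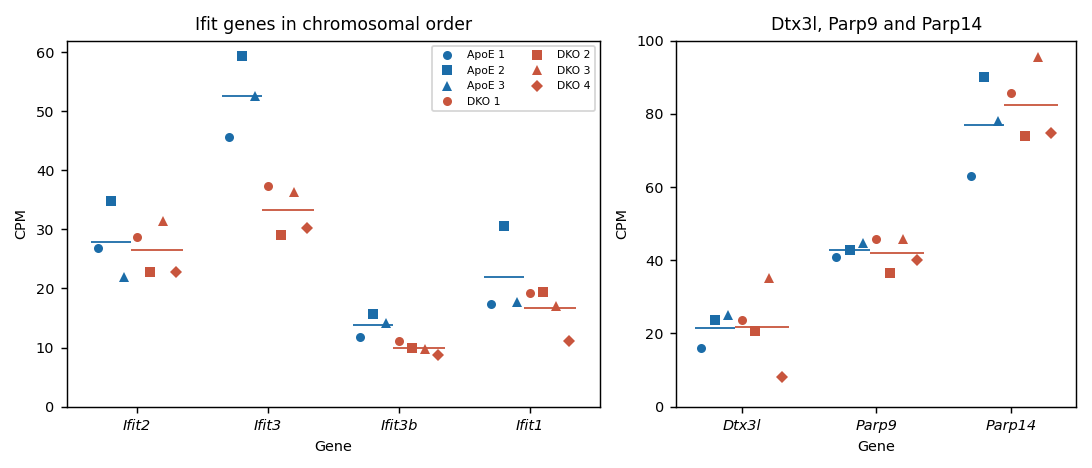
CPM of the Ifit genes in chromosomal order (left) and of Dtx3l, Parp9 and Parp14 (right), with 1 point per library (blue, ApoE; red, DKO; the shape gives the number) and the group means as short lines. Blue and red points separate for Ifit3 (45.7 to 59.4 against 29.1 to 37.3 CPM) and for Ifit3b, not for Ifit2 or Ifit1; Dtx3l in DKO 4 (7.98 CPM) lies far below its other values.

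Of the 7 effectors that bind RNA or other nucleic acid, the 3 Ifit genes were negative and the other 4 positive, and none was called. Eif2ak2, which encodes the kinase PKR that halts translation when it binds double-stranded RNA, was at 24.0, 34.1 and 31.4 CPM in the ApoE libraries and at 42.0, 40.0, 42.0 and 33.5 CPM in the DKO libraries. Only DKO 4 lay within the ApoE range (fitted log2 fold change 0.40, SE 0.15, unadjusted p = 0.0272, edgeR adjusted p = 0.202). Ifih1, which encodes the long double-stranded RNA sensor MDA5, was at 23.2, 29.8 and 24.3 against 32.1, 26.5, 30.9 and 22.6 CPM, with DKO 4 the lowest of all (0.12, interval -0.24 to 0.48). Zbp1, a sensor of left-handed nucleic acid that can trigger necroptosis, was highest in ApoE 2 at 23.9 CPM and lowest in ApoE 1 at 13.1 CPM, with the DKO libraries at 15.0 to 21.7 CPM between them. Trim25, the ubiquitin ligase that assists RIG-I, lay at 61.9 to 74.4 CPM and 55.5 to 81.1 CPM, DKO 4 being the lowest and DKO 1 the highest.

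The oligoadenylate synthetases make the messenger that activates RNase L. Of the 5 family members, 4 were highest in ApoE 2 (Oas1a, Oas3, Oasl1 and Oasl2). Oas3, the long enzyme of the family, was at 3.72, 10.2 and 4.47 CPM in the ApoE libraries and at 8.81, 7.78, 8.79 and 4.91 CPM in the DKO libraries. Its lowest and highest values both carried the ApoE label, 2.73-fold apart (fitted log2 fold change 0.31, interval -0.61 to 1.22). Without ApoE 2 the log2 fold change of Oas3 was 0.89, and without ApoE 1 it was 0.05. Oas1a ran from 12.7 CPM in ApoE 1 to 24.6 CPM in ApoE 2, with the 4 DKO libraries at 14.1 to 21.0 CPM between them. Oas2 did not follow that order and was highest in DKO 4 at 51.4 CPM, beside 27.7 to 33.1 CPM in the other DKO libraries and 30.2 to 46.1 CPM in the ApoE libraries. Oasl1, which encodes an inhibitor of Irf7 translation, was at 6.44 to 9.51 against 4.97 to 8.17 CPM. Oasl2, a ubiquitin-like family member, was at 37.6 to 55.6 against 41.2 to 48.8 CPM.

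The guanylate-binding proteins are GTPases that attack the membranes around intracellular microbes and answer strongly to interferon gamma. None of the 3 was highest in ApoE 2. Gbp2 was at 62.3, 67.0 and 63.7 CPM in the ApoE libraries and at 58.6, 58.8, 75.7 and 77.8 CPM in the DKO libraries, so the DKO libraries fell into a lower and a higher pair around the ApoE values (log2 fold change 0.07, interval -0.22 to 0.37). Gbp7 was at 27.5, 36.1 and 37.3 against 39.1, 35.5, 42.9 and 34.8 CPM, with ApoE 1 lowest (log2 fold change 0.18, SE 0.13, edgeR adjusted p = 0.485). Gbp3 was at 31.4, 39.4 and 42.4 against 39.6, 30.6, 40.3 and 39.9 CPM, where ApoE 1 and DKO 2 were low and the rest close together. The 3 genes lie within 107673 bases on chromosome 3 (142530336 to 142638008) in a family of close copies, and reads that match several copies could have been split between them.

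Among the membrane and remaining effectors, 1 of 5 was positive and none was called. Ifi35, which encodes a leucine zipper protein that partners NMI, was at 41.8, 37.1 and 43.6 CPM against 30.2, 30.6, 35.3 and 38.8 CPM. Only DKO 4 reached into the ApoE range (log2 fold change -0.28, SE 0.12, unadjusted p = 0.0491, edgeR adjusted p = 0.251). Ifi44 was at 5.36, 8.00 and 6.60 against 10.2, 7.92, 9.81 and 7.52 CPM, with ApoE 2 inside the DKO range (0.41, SE 0.20, edgeR adjusted p = 0.306). Rsad2, which encodes viperin, the enzyme that makes a chain-terminating nucleotide, was at 23.0, 30.1 and 28.96 against 26.5, 21.5, 27.6 and 14.8 CPM. DKO 4 stood lowest for it, as it did for Ifit1 (-0.28, SE 0.22, edgeR adjusted p = 0.514). Bst2 (72.9 to 93.2 against 62.1 to 87.4 CPM) and Rtp4, a chaperone of membrane receptors (17.3 to 24.3 against 15.8 to 21.8 CPM), overlapped between labels, and both were highest in ApoE 2 and lowest in DKO 2.

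Dtx3l varied more than any other member and apart from its partner. DTX3L is the ubiquitin ligase that pairs with the ADP-ribosylating protein PARP9 to modify histones. The gene was at 16.1, 23.5 and 25.1 CPM in the ApoE libraries and at 23.6, 20.7, 35.1 and 7.98 CPM in the DKO libraries, a 4.40-fold range whose ends were both DKO. Parp9 kept within 36.6 to 45.8 CPM over all 7 libraries, a 1.25-fold range, although the gene models share 558 bases on chromosome 16 (35938470 to 35939027). The ratio of Dtx3l to Parp9 was 0.393, 0.550 and 0.561 against 0.515, 0.566, 0.766 and 0.199, highest in DKO 3 and lowest in DKO 4 (exact two-sided permutation p = 0.971 between labels). Reads of the shared bases cannot be assigned without knowing whether counting used strand. Parp14, next to them and an enzyme that adds single ADP-ribose units, was at 62.9, 90.2 and 77.9 against 85.8, 74.0, 95.6 and 74.7 CPM (log2 fold change 0.10, interval -0.25 to 0.45).

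The upstream pathway, from lists of genes that were not members, was likewise without calls. Of 6 interferon receptor genes 0 passed the test, 4 being positive. Ifngr2, a chain of the interferon gamma receptor, was at 86.1, 83.6 and 78.8 CPM in the ApoE libraries and at 115, 104, 98.2 and 111 CPM in the DKO libraries, without overlap (log2 fold change 0.37, SE 0.09, edgeR adjusted p = 0.146). It was named for the smallest p of its list, and every other receptor gene overlapped. Over all genes tested, 16.3% did not overlap. Ifnar1, of the type I receptor, was at 83.5 to 88.9 against 81.4 to 120 CPM, where DKO 4 alone lay below the ApoE range (0.30, SE 0.14, edgeR adjusted p = 0.282). Jak1, the kinase shared by both receptors, was at 162 to 185 against 159 to 242 CPM (0.30, SE 0.15), with DKO 4 again the lowest of all, and Jak2 at 60.3 to 72.3 against 57.6 to 102 CPM.

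Sensors and adaptors of nucleic acid had 15 of 17 positive and 0 called, with a median log2 fold change of 0.38 beside -0.021 over all genes. Most immune cell markers were positive too, with 12 of 12 macrophage genes positive (median 0.44), 11 of 12 tested T and NK cell genes (0.61), 8 of 8 B and plasma cell genes (0.83) and 7 of 7 tested neutrophil genes (1.15), and 0 of them called. Of 5 monocyte genes 3 were positive (0.33). The part of these cells in the sensor genes was not tested. Tlr3, the endosomal sensor of double-stranded RNA, was at 12.4, 14.7 and 14.9 against 23.0, 21.9, 19.7 and 15.0 CPM (0.51, SE 0.17, edgeR adjusted p = 0.178), and Ikbke, a kinase that activates IRF3, at 29.7 to 31.7 against 33.1 to 39.7 CPM (0.26, SE 0.10, edgeR adjusted p = 0.222). The groups did not overlap for either gene, against 16.3% of all genes tested. Both were named for the smallest p of their list, and the groups overlapped for every other gene of that list. Of 9 negative regulators 0 were called and 7 were positive. Trex1, the exonuclease that clears cytosolic DNA, was at 22.7 to 28.0 against 21.2 to 25.3 CPM, and Ptpn6, a phosphatase of blood cells, at 43.3 to 71.9 against 50.3 to 86.8 CPM.

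Of 53 further interferon-stimulated genes tested, 0 were called, 31 were positive and 22 negative, with a median of 0.06. ApoE 2 was the highest library for 17 of them. Ifi27l2a, a small protein of membranes, was at 425, 563 and 640.5 CPM in the ApoE libraries and at 195, 194, 239 and 374 CPM in the DKO libraries, without overlap (log2 fold change -1.12, SE 0.26, edgeR adjusted p = 0.146). Ifit3b had the next smallest p of that list. The gene model of Ifi27 (chromosome 12, 103434189 to 103440245) lies within that of Ifi27l2a (103433873 to 103443680), so their values may not be independent. Ifi27 overlapped between labels, at 241 to 529 against 154 to 265 CPM (log2 fold change -0.94, SE 0.30, edgeR adjusted p = 0.174). In the other direction, Iigp1 was at 31.3 to 39.6 against 40.4 to 59.1 CPM, without overlap (log2 fold change 0.46, SE 0.16, edgeR adjusted p = 0.192). At an unadjusted edgeR p under 0.05, 3 genes of the list were higher in DKO and 5 lower, against 8% and 11.8% of all genes tested. Of 11 antigen-processing genes that interferon induces, 0 were called and 8 were negative (median -0.19). Psmb10, a catalytic subunit of the immunoproteasome, was at 40.3, 44.2 and 47.2 against 29.7, 32.0, 35.5 and 34.8 CPM (-0.41, SE 0.10, edgeR adjusted p = 0.148), and Psme1, of the proteasome activator, at 87.7 to 99.5 against 68.1 to 85.7 CPM (-0.30, SE 0.10, edgeR adjusted p = 0.184). Neither gene overlapped between labels, against 16.3% of all genes tested without overlap. Both were named for the smallest p of their list, and every other gene of that list overlapped.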

How the data were processed

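RNA from the aortas was made into TruSeq Stranded mRNA libraries, per the labels' protocols. The submitters' processing notes name Trimmomatic, HISAT2, HTSeq, Cufflinks and DESeq and the build GRCm38.p6, without versions or roles. Annotation and use of strand were not given in the sources used here. The authors deposited whole-number read counts per gene, not normalized, and FPKM values, which are scaled for gene length and depth. Column names gave the samples.

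Genes were kept by edgeR's filterByExpr at a minimum count of 10. After TMM scaling, edgeR's quasi-likelihood test compared DKO with ApoE over 14609 genes, and calls were made at a Benjamini-Hochberg adjusted p under 0.05. A standard error is the size of the log2 fold change divided by the square root of its F, and 95% intervals use that test's degrees of freedom. Mean log2 CPM used a prior count of 2. The software was R (4.3.3) with edgeR (4.0.16), limma (3.58.1) and DESeq2 (1.42.0), tested on simulated data. No pair of libraries agreed within sampling noise (lowest chi-square per gene 34.7). Coordinates and promoters are RefSeq's on GRCm38.p6.

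Alternatives were RLE scaling, DESeq2, no low-count filter, a replicate block, leaving out single libraries, and limma on log2 FPKM with a pseudocount of 1 or 0.1, or of 1 with no filter on low values. The members, lists and tests were chosen with earlier results of these data known. All members are named, and of each pathway list the 2 genes with the smallest p; any other gene was chosen after its values were seen. Counts over the list of signal transducers are not reported here.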

Additional observations from a re-analysis of the deposited data

Results flagged for a closer look

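In the 4 DKO libraries Gbp3 was flagged because 1 library stood apart: DKO 2 was at 30.6 CPM beside 39.6, 40.3 and 39.9 CPM in DKO 1, DKO 3 and DKO 4. The gap made up 0.926 of the range of the group. Chance flags about 1 group in 20, and this was the only flag among 44 such groups tested. DKO 2 was the lowest library for 7 of the 29 members.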

How the results depend on the processing

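No member was called in any of the 14 alternatives to the edgeR fit except Ifit3 with DESeq2 (log2 fold change -0.63), and 16 members kept their sign in all of them. Over all genes DESeq2 called 453 higher and 679 lower, and 1 member lower. The replicate block called 0 genes lower, as did limma on log2 FPKM (pseudocount 1) with no filter, and limma with the filter called 1 gene higher at either pseudocount. Among libraries with the same number, those numbered 2 varied together and those numbered 1 and 3 did not (correlations of deviations -0.39, 0.70 and 0.0036 for numbers 1 to 3). Between libraries with different numbers these correlations ran from -0.73 (ApoE 3 with DKO 2) to 0.58 (ApoE 3 with DKO 1). The numbers were not taken to pair the libraries. Leaving out 1 library gave 0 to 4 genes higher, 0 to 2 lower, and 7 to 18 members with a positive sign, the 7 being without ApoE 1. Without ApoE 2 and ApoE 3 together, an alternative chosen after seeing the data that leaves 1 ApoE library assumed to vary like the others, 0 genes were lower and 23 members were positive. Members near 0 changed sign. With the replicate block Gbp2 was at -0.0092, Ifit2 at 0.0016, Oas1a at 0.044 and Stat2 at -0.0076. RLE and DESeq2 gave 0.019 and 0.020 for Gbp3, 0.019 and 0.020 for Oas1a, and 0.0038 and 0.0049 for Parp9. Limma on log2 FPKM at pseudocounts of 1 (with and without the filter) and 0.1 gave -0.016 and -0.059 for Dtx3l, 0.068 and 0.076 for Gbp3, 0.030 and 0.032 for Irf1, 0.101 and 0.126 for Oas1a, and 0.029 and 0.033 for Oasl2. With 1 library left out the ranges were -0.31 to 0.30 for Dtx3l, -0.12 to 0.095 for Gbp3, -0.23 to 0.12 for Ifit2, -0.083 to 0.047 for Irf1, -0.046 to 0.21 for Irf9, -0.072 to 0.26 for Isg15, -0.20 to 0.28 for Oas1a, -0.16 to 0.13 for Oasl2, -0.025 to 0.23 for Parp14, -0.066 to 0.055 for Parp9, -0.090 to 0.070 for Stat2 and -0.035 to 0.45 for Zbp1. The cause of these changes was not tested. ApoE 2 was the highest library for 13 to 14 members under every scaling tried.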
